A study of Mus musculus with 7 samples.

Results

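CXC ligands are small secreted chemokines that direct leukocytes into injured tissue, and 7 of them (Cxcl1, Cxcl2, Cxcl3, Cxcl5, Cxcl9, Cxcl10 and Cxcl16) are described here in liver neutrophils after acetaminophen-induced liver injury (AILI). They were found by gene symbol in an RNA-seq table of 16047 genes. Of the 7 genes, 6 were found, and all 6 passed the filter on low values together with 9594 genes in all. Cxcl5 was not analysed here. The neutrophils came from C57BL/6 mice challenged with acetaminophen (APAP), adult males per the study's methods, and were sorted as CD11b+Ly6CloCX3CR1-GFP-Ly6G+ cells at 24 h, 50000 cells per liver. The study also used Cx3cr1gfp/+ reporter mice, and whether the sequenced mice carried this reporter is not clear from the sources used here. The PBS group (n = 4, replicates 5 to 8) received PBS, and the MC-21 group (n = 3, replicates 2 to 4) received 400 µL of medium that held the antibody MC-21 against CCR2 at 29 µg/mL and removes Ly6Chi monocytes before they enter the liver. Both groups were injected from 12 h before APAP and every 24 h, so the comparison asks how CXC ligand transcripts of liver neutrophils differ when Ly6Chi monocytes are missing. The labels name no batch. The antibody came in conditioned medium, which the PBS group did not receive, so antibody and medium cannot be told apart.

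Cxcl1, Cxcl2, Cxcl3 and Cxcl5 carry a glutamate-leucine-arginine motif ahead of the CXC cysteines and bind CXCR2, and in mice they are the main signals that draw neutrophils to injured tissue. Neutrophils make some of them too, which lets cells that arrive early call in more. Their genes are classical targets of NF-κB, downstream of Toll-like receptors and interleukin-1. Cxcl9 and Cxcl10 lack the motif, are induced by interferons, and attract T and NK cells through CXCR3. Cxcl16 is made as a membrane-anchored protein, serves as a scavenger receptor for oxidized lipoprotein in that form, is released by the sheddase ADAM10, and binds CXCR6.

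The genes lie in 3 places of the mouse genome. In mm9, the build of the files, and in the GENCODE M1 annotation, Cxcl3 spans chr5:91215129-91217112, Cxcl1 spans chr5:91320267-91322141 and Cxcl2 spans chr5:91332897-91334935, all on the plus strand. Cxcl9 at chr5:92750357-92757105 and Cxcl10 at chr5:92775664-92777915 form a second cluster on the minus strand. Cxcl16 lies apart at chr11:70267485-70273486 on the minus strand. RefSeq promoters of GRCm38.p6, from 250 bases before to 50 bases after the start of a gene, were at hand for 5 of the 6 genes, the exception being Cxcl16. They were searched on both strands for 3 motifs: the κB core GGGNNTTTC, the interferon-stimulated response element (ISRE) core GAAANNGAA and the TATA box TATAAA. The stretches below are shown because they hold the κB and ISRE matches found in the 5 promoters. They lie at chr5:90891145-90891244, chr5:90903799-90903898 and chr5:90786001-90786100 on the plus strand (100 bases up to the base before the start) for Cxcl1, Cxcl2 and Cxcl3, at chr5:92328210-92328269 on the minus strand for Cxcl9 (190 to 131 bases before the start) and at chr5:92349050-92349109 on the minus strand for Cxcl10 (220 to 161 bases before the start), all in GRCm38.p6. Each is written 5′ to 3′ in the direction of the gene, and capitals mark matches to the κB core or the ISRE core on either strand.
Cxcl1: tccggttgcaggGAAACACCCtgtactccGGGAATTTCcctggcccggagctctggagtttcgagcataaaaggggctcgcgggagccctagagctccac
Cxcl2: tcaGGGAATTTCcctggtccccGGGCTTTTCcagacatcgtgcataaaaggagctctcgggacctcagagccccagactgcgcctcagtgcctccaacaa
Cxcl3: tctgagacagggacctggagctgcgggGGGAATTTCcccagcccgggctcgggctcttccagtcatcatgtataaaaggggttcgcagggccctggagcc
Cxcl9: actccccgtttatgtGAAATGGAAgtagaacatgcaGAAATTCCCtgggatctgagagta
Cxcl10: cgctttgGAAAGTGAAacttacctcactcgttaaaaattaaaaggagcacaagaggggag

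The same 9 letters, GGGAATTTC, stood 71, 97 and 73 bases before the start in Cxcl1, Cxcl2 and Cxcl3. Cxcl1 held a further match on the opposite strand at 88 bases, Cxcl2 another, GGGCTTTTC, at 78 bases, and Cxcl9 one on the opposite strand at 154 bases. The κB core was thus present in 4 of 5 promoters, against 4.36% of the 32851 promoters in the RefSeq table. The ISRE core was present in Cxcl9 at 175 bases and in Cxcl10 at 213 bases, against 8.56% of all promoters. TATAAA was found in Cxcl3 at 30 bases and in Cxcl9 at 195 bases (13.6% of all promoters). No match overlapped another. A match describes letters only, and binding was not measured.

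**Figure D1:**
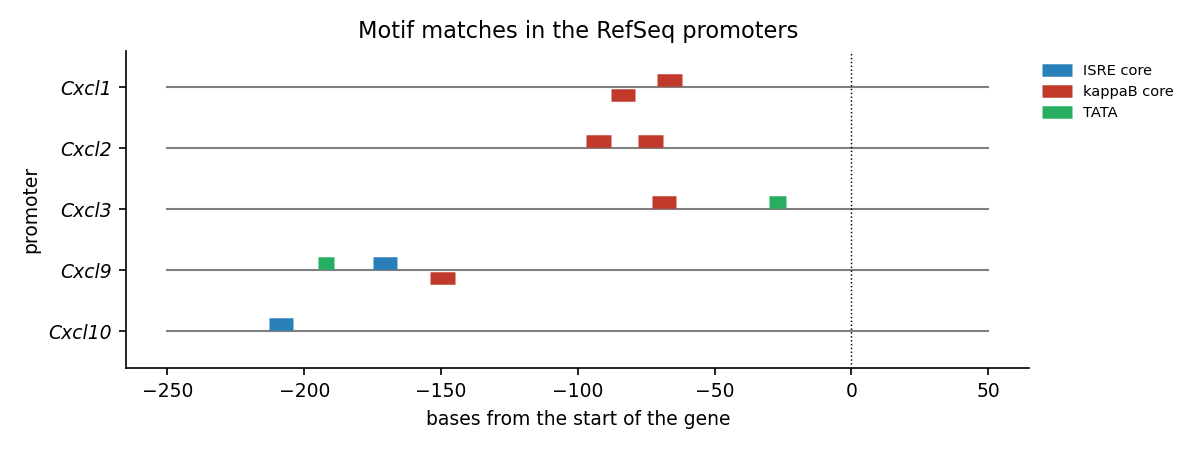
Matches to the κB core, ISRE core and TATAAA in 5 RefSeq promoters, by distance in bases from the start of the gene. Blocks above a line are on the strand of the gene and blocks below it on the other strand, and the κB core matches of Cxcl1, Cxcl2 and Cxcl3 lie between 97 and 71 bases before the start.

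The sorted cells carried the RNA of neutrophils. The summed RPKM (read numbers scaled to the length of the transcript and the depth of the library, the deposited unit) of 8 neutrophil markers was between 18402 and 31623 in PBS and between 28342 and 41971 in MC-21 neutrophils. Transcripts of other cells were present as well. The summed level of 12 monocyte and macrophage markers was between 580 and 697 RPKM in PBS and between 302 and 361 RPKM in MC-21. Of the 12 markers, 8 were lower in every MC-21 library than in any PBS library. Over all genes tested, 13.3% had groups without overlap, in either direction. Ccr2, the receptor that MC-21 binds, had 1.91, 3.26, 2.30 and 2.18 RPKM in PBS replicates 5 to 8 and 0.390, 0 and 0.200 RPKM in MC-21 replicates 2 to 4. The depth of the libraries, estimated from genes near the level of 1 read, was such that 1 RPKM in a transcript of 1 kb stood for between 2.66 and 3.96 reads in PBS and for 3.57, 1.59 and 2.78 reads in MC-21 replicates 2, 3 and 4, so that replicate 3 was the shallowest library. The protocol sorted cells per liver, and the labels number the libraries without saying whether each is 1 mouse, so the spread between libraries may be partly technical.

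Differences are MC-21 minus PBS on log2(RPKM + 1), a scale that understates the change of genes at low RPKM. In PBS neutrophils the 6 ligands spanned a wide range of levels. By mean RPKM, a level per length of transcript, the order was Cxcl2, Cxcl3, Cxcl10, Cxcl16, Cxcl1 and Cxcl9. Cxcl10 and Cxcl16 were not separated in this order, since their ranges overlapped and Cxcl10 was the higher in 2 of 4 libraries, and the ranges of Cxcl16 and Cxcl1 overlapped as well. In MC-21 neutrophils the mean RPKM of Cxcl1 came to lie beside that of Cxcl10 and above that of Cxcl16, with Cxcl10 above Cxcl1 in 1 of 3 libraries and Cxcl1 above Cxcl16 in 3 of 3. The place of Cxcl16 depends on the scale. Multiplied by transcript length, since 3′ libraries read the ends of transcripts, the MC-21 order was Cxcl2, Cxcl3, Cxcl16, Cxcl10, Cxcl1 and Cxcl9, and in PBS Cxcl16 and Cxcl10 changed places. The top pair, Cxcl2 and Cxcl3, and the lowest gene, Cxcl9, held their places in both groups on both scales. By RPKM they did not overlap with their neighbours. Multiplied by transcript length, Cxcl9 overlapped with Cxcl1 in both groups, and Cxcl3 with Cxcl16 in PBS.

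**Figure D2:**
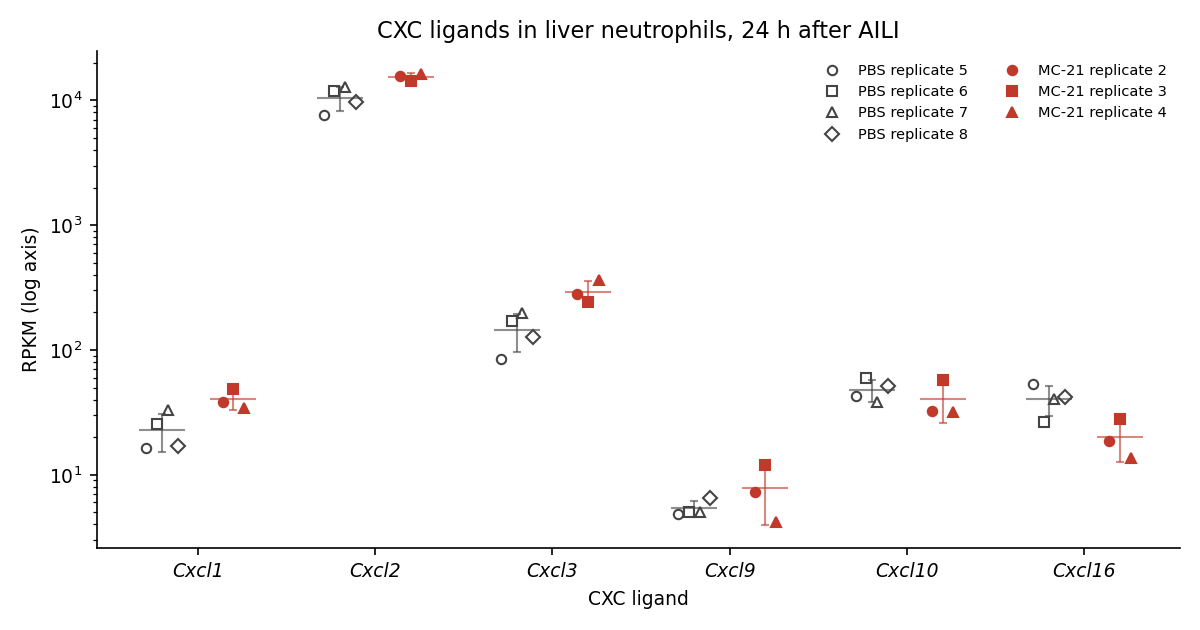
RPKM of the 6 CXC ligands on a log axis in each library of PBS (open) and MC-21 (filled) neutrophils, with the mean (horizontal line) and SD (error bar) of each group (n = 4 and n = 3). For Cxcl1, Cxcl2 and Cxcl3 every filled symbol is above every open one, while the groups overlap for Cxcl9, Cxcl10 and Cxcl16.

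The 3 neutrophil-attracting ligands were higher in every MC-21 library than in any PBS library, without an adjusted p under 0.05. Of all genes tested, 3.1% were higher in MC-21 without overlap. Cxcl2 had 7687, 11967, 12755 and 9603 RPKM in PBS replicates 5 to 8 and 15710, 14212 and 16233 RPKM in MC-21 replicates 2 to 4. It ranked 2 among the 16047 genes in each of the 7 libraries. With the length of the annotated transcript used here, 1080 bases, it made up between 0.830% and 1.75% of the mapped reads. Another annotated transcript has 1830 bases, and with that length the share and the estimated reads would be higher. PBS neutrophils averaged 10503 ± 2306 RPKM (SD, n = 4) and MC-21 neutrophils 15385 ± 1049 RPKM (SD, n = 3). The log2 fold change of Cxcl2 was 0.58 (SE 0.17, 95% interval 0.18 to 0.97), or 1.49-fold, with an adjusted p of 0.194 by limma (Benjamini-Hochberg over the 9594 genes). Quantile normalization, which gives each rank 1 value, sets this difference to 0.

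Cxcl3 came next in level. It had 84.6, 171, 198 and 127 RPKM in PBS replicates 5 to 8 and 280, 241 and 360 RPKM in MC-21 replicates 2 to 4, and the lowest MC-21 library thus lay above the highest PBS library. PBS neutrophils averaged 145 ± 49.9 RPKM (SD, n = 4) and MC-21 neutrophils 294 ± 60.9 RPKM (SD, n = 3). The log2 fold change of Cxcl3 was 1.06 (SE 0.28, 95% interval 0.44 to 1.68), or 2.09-fold, with limma's adjusted p of 0.144. Cxcl3 and Cxcl2 share 61 stretches of 50 bases, 6.35% of those in Cxcl3, which lie between 844 and 953 bases from the 3′ end of the 1009-base Cxcl3 transcript, away from the end that 3′ libraries read. How reads with several matches were counted is not given in the sources used here. The ratio of Cxcl2 to Cxcl3 within a library was not constant, being between 64.4 and 90.9 in PBS and between 45.0 and 59.0 in MC-21 neutrophils.

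Cxcl1 was far less abundant than its neighbours in the cluster. It had 16.4, 25.3, 32.9 and 17.0 RPKM in PBS replicates 5 to 8 and 38.1, 48.3 and 34.1 RPKM in MC-21 replicates 2 to 4. The gap between the groups was narrow, from 32.9 RPKM in PBS replicate 7 to 34.1 RPKM in MC-21 replicate 4. PBS neutrophils averaged 22.9 ± 7.80 RPKM (SD, n = 4) and MC-21 neutrophils 40.2 ± 7.35 RPKM (SD, n = 3). The log2 fold change of Cxcl1 was 0.83 (SE 0.25, 95% interval 0.26 to 1.39), or 1.77-fold, with limma's adjusted p of 0.197. The estimated number of reads behind Cxcl1 was between 43 and 130 per library, against 22957 to 60614 for Cxcl2 and 236 to 1011 for Cxcl3.

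The order of the libraries was shared by the 3 genes within PBS. Replicate 5 was the lowest for Cxcl1, Cxcl2 and Cxcl3, followed by replicates 8, 6 and 7. Within MC-21, Cxcl2 and Cxcl3 were lowest in replicate 3 and highest in replicate 4, and Cxcl1 was lowest in replicate 4 and highest in replicate 3. By a two-sided exact permutation test over the 35 ways to label the 7 libraries, p was 0.0571 for each of the 3 genes, where the smallest p the design allows is 0.0286.

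The interferon-induced ligands overlapped between the groups. Cxcl9 was the least abundant of the 6, with 4.86, 5.06, 5.05 and 6.52 RPKM in PBS replicates 5 to 8 and 7.32, 11.9 and 4.21 RPKM in MC-21 replicates 2 to 4. One MC-21 library was below all PBS libraries and the other 2 were above them. PBS neutrophils averaged 5.37 ± 0.770 RPKM (SD, n = 4) and MC-21 neutrophils 7.81 ± 3.87 RPKM (SD, n = 3), from 34 to 76 estimated reads per library. The log2 fold change of Cxcl9 was 0.38 (SE 0.29, 95% interval -0.27 to 1.02; limma's adjusted p = 0.581; exact permutation p = 0.343). Its size rested on single libraries, being 0.05 without MC-21 replicate 3 and 0.71 without MC-21 replicate 4.

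Cxcl10 had 42.7, 60.1, 38.3 and 51.4 RPKM in PBS replicates 5 to 8 and 32.3, 57.1 and 31.7 RPKM in MC-21 replicates 2 to 4. MC-21 replicate 3 lay within the PBS range, while the other 2 MC-21 libraries were below it. PBS neutrophils averaged 48.1 ± 9.64 RPKM (SD, n = 4) and MC-21 neutrophils 40.4 ± 14.5 RPKM (SD, n = 3). The log2 fold change of Cxcl10 was -0.28 (SE 0.24, 95% interval -0.82 to 0.26; limma's adjusted p = 0.633; exact permutation p = 0.343), and it was -0.55 without MC-21 replicate 3, -0.15 without MC-21 replicate 2, -0.14 without MC-21 replicate 4 and -0.17 without PBS replicate 6. Cxcl10 lies whole inside Art3, a gene of the opposite strand, and 133 bases at its 3′ end are also exon of Art3. Art3 was between 0.438 and 4.93 RPKM, at most 0.114 of the Cxcl10 level in the same library. The ratio of Cxcl10 to Cxcl9 within a library was between 7.58 and 11.9 in PBS and between 4.41 and 7.53 in MC-21 neutrophils.

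Cxcl16 differed in the other direction, with lower values in most MC-21 libraries. It had 52.9, 26.5, 40.5 and 42.2 RPKM in PBS replicates 5 to 8 and 18.5, 28.2 and 13.5 RPKM in MC-21 replicates 2 to 4. The groups overlapped, since MC-21 replicate 3 was above PBS replicate 6. PBS neutrophils averaged 40.5 ± 10.9 RPKM (SD, n = 4) and MC-21 neutrophils 20.1 ± 7.48 RPKM (SD, n = 3). The log2 fold change of Cxcl16 was -0.996 (SE 0.28, 95% interval -1.63 to -0.37), or 1.99-fold lower, with limma's adjusted p of 0.170 and an exact permutation p of 0.0857. It was -1.26 without MC-21 replicate 3 and -0.76 without MC-21 replicate 4. Cxcl16 overlaps Zmynd15, a gene of the opposite strand, over 552 bases at the 5′ ends of both, between 5451 and 6002 bases of genomic distance from the 3′ end of Cxcl16 and thus away from the end that 3′ libraries read. Zmynd15 followed it closely, at between 0.423 and 0.571 of the Cxcl16 level in every library. Whether reads were counted by strand is not given in the sources used here, so reads from the overlap cannot be told apart.

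**Figure D3:**
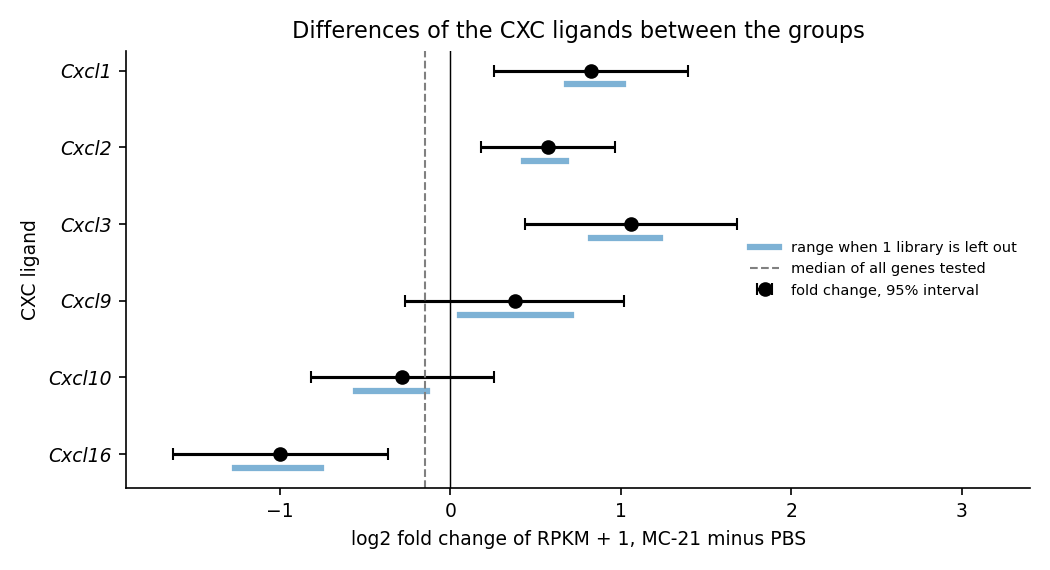
Log2 fold changes of the 6 CXC ligands, MC-21 minus PBS, with 95% intervals (points and error bars) and the range of the fold change when each of the 7 libraries was left out in turn (blue bars). The dashed line is the median of all genes tested, -0.15, and the blue bars stay above 0 for Cxcl1, Cxcl2, Cxcl3 and Cxcl9 and below 0 for Cxcl10 and Cxcl16.

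Over the 6 ligands, limma gave 0 with an adjusted p under 0.05, against 0.625% of all genes tested. An unadjusted p under 0.05 was found for 4 of 6, against 14.7% of all genes. In the limma fit these were Cxcl1 (0.00916), Cxcl2 (0.00876), Cxcl3 (0.00365) and Cxcl16 (0.00582). Adding the study's second cutoff, a change of 2-fold or more, here on RPKM + 1, left Cxcl3 (2.7% of all genes). Cxcl16, 1.99-fold lower on this scale, fell just short and passed when 0.1 in place of 1 was added to the RPKM. The groups did not overlap for 3 of 6, against 13.3% of all genes, and all 3 were higher in MC-21, against 3.1% of all genes. Most genes lay on the other side, with 69.4% of the genes tested lower in MC-21, and a median log2 fold change of -0.15 for all of them. With each library centred on its median the log2 fold changes were 0.99 for Cxcl1, 0.74 for Cxcl2, 1.22 for Cxcl3, 0.54 for Cxcl9, -0.12 for Cxcl10 and -0.83 for Cxcl16.

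Ratios within a library do not depend on its scaling. The ratio of Cxcl3 to Cxcl16 was between 1.60 and 6.48 in PBS and between 8.53 and 26.7 in MC-21 neutrophils. The ratio of Cxcl1 to Cxcl16 was between 0.310 and 0.957 in PBS and between 1.71 and 2.52 in MC-21 neutrophils. Per length, Cxcl16 was thus above Cxcl1 in each PBS library and below it in each MC-21 library. Not scaled to length, Cxcl16 was above Cxcl1 in all 7 libraries, with 0.00365% to 0.00762% against 0.00325% to 0.00461% of the mapped reads in MC-21. The ratios of Cxcl2 to Cxcl1 overlapped, at 388 to 564 in PBS and 294 to 476 in MC-21 neutrophils. These pairs were chosen after the values were seen and were not tested.

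The markers of monocytes and macrophages moved with the groups. In bulk RNA, fewer cells of a type and less RNA per cell cannot be told apart. Cxcl16 and the summed level of the 12 markers were both lower in MC-21. Within PBS, replicate 5 had the lowest marker sum (580 RPKM) and the highest Cxcl16 (52.9 RPKM), while within MC-21 replicate 4 was the lowest in both (302 RPKM and 13.5 RPKM). Cxcl1, Cxcl2 and Cxcl3 were higher where the marker sum was lower between the groups, and within PBS replicate 5 was the lowest in both. Other marker sums overlapped between the groups for Kupffer cells (56.3 to 84.4 RPKM in PBS, 34.3 to 64.4 in MC-21), endothelial cells (1027 to 2320 and 1176 to 2101) and hepatocytes (261 to 496 and 242 to 376). Sums of platelet markers (85.7 to 251 and 45.1 to 71.5), dendritic cell markers (5.55 to 9.18 and 3.96 to 4.92) and B cell markers (10.7 to 29.9 and 6.14 to 9.73) were lower in MC-21 without overlap. In each of these lists 1 gene was lower without overlap (Pf4 of 4, Ccr7 of 6 and Cd79b of 4), against 13.3% of all genes in either direction. The lists of T and NK cells and of stellate cells and fibroblasts also held 1 such gene each, with sums that overlapped. Pf4 made up most of the platelet sum. The platelet gene Itga2b lay the other way, with 2.30 to 3.26 RPKM in PBS and 3.56 to 4.32 RPKM in MC-21. Gp9 (log2 fold change 0.66) and Ppbp (-0.25) overlapped between the groups. Among the dendritic cell markers 3 of 6 were at 0 in at least 1 library. The part of any of these cells in the values of the ligands was not tested.

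**Figure D4:**
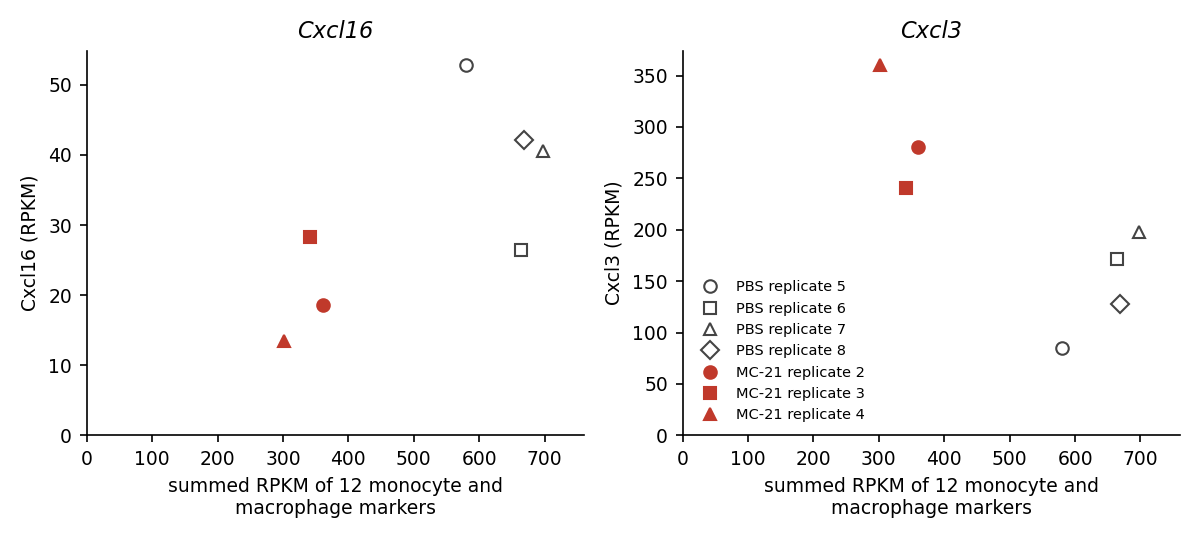
Cxcl16 (left) and Cxcl3 (right) in RPKM against the summed RPKM of 12 monocyte and macrophage markers, 1 point per library. PBS libraries (open) lie between 580 and 697 RPKM and MC-21 libraries (filled) between 302 and 361 RPKM on the horizontal axis, with Cxcl16 lower and Cxcl3 higher in most or all MC-21 libraries.

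Genes whose profiles over the 7 libraries were most like those of the ligands were sought by the root mean square difference of centred log2(RPKM + 1) values, for the 5 ligands with a log2 range above 1 (Cxcl10 spanned 0.90). For Cxcl3 the 3 nearest genes were Cd14, the co-receptor for lipopolysaccharide (0.11), Egln3, an oxygen-sensing prolyl hydroxylase (0.11), and Cd300lf, an inhibitory receptor of myeloid cells (0.17). Cd14 had 391, 671, 800 and 581 RPKM in PBS replicates 5 to 8 and 1345, 1071 and 1430 RPKM in MC-21 replicates 2 to 4, in the order of Cxcl3 in both groups. For Cxcl1 they were Tnfaip3, the A20 inhibitor of NF-κB signalling (0.13), Naaa (0.19) and Picalm (0.22). For Cxcl2 they were Zrsr1 (0.08), Gpr35 (0.09) and the immediate early gene Egr3 (0.10). These genes were low, at 1.85 to 4.40, 5.15 to 12.0 and 1.62 to 4.68 RPKM. At such levels adding 1 RPKM shrinks differences, so their match to the abundant Cxcl2 depends on the scale. For Cxcl9 they were Clec9a, a lectin of cross-presenting dendritic cells (0.14), Sord (0.15) and Sesn2 (0.15), and for Cxcl16 Zmynd15 (0.11), Tsc22d1 (0.16) and Phf11b (0.18). Clec9a (1.96 to 8.01 RPKM) and Sesn2 (1.90 to 7.34 RPKM) were low as well. Between the ligands the nearest pairs were Cxcl1 with Cxcl2 (0.26), Cxcl2 with Cxcl3 (0.30) and Cxcl1 with Cxcl3 (0.34), and the farthest was Cxcl3 with Cxcl16 (1.24). Many other genes lay closer. Among the genes tested, Cxcl1 took place 286 and Cxcl3 place 512 for Cxcl2. For Cxcl1, Cxcl2 took place 15 and Cxcl3 place 111, and for Cxcl3, Cxcl2 took place 26 and Cxcl1 place 58. The points of a profile are 7 libraries of 2 groups, and the distances are a description.

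The other CXC ligands were low, apart from Pf4. Of 8 listed, 4 were tested, and limma gave 0 with an adjusted p under 0.05 and 2 with an unadjusted p under 0.05, both lower, against 14.7% of all genes in either direction. Cxcl14 had 1.39, 3.78, 6.59 and 1.66 RPKM in PBS replicates 5 to 8 and 0.307, 0 and 0.591 RPKM in MC-21 replicates 2 to 4 (log2 fold change -1.61, limma's adjusted p = 0.125). Pf4, the platelet factor Cxcl4, had 75.0 to 244 RPKM in PBS and 36.7 to 60.9 RPKM in MC-21 neutrophils (log2 fold change -1.26, limma's adjusted p = 0.194). The median log2 fold change of the 4 was -0.75, against -0.15 over all genes.

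Receptors of CXC ligands were measured in the same cells, with a list that is not limited to receptors of the ligands described here. Of 8 listed, 7 were tested, limma gave 0 with an adjusted p under 0.05, and 1 was higher and 2 lower at an unadjusted p under 0.05 (14.7% of all genes in either direction), with a median log2 fold change of -0.08. Cxcr2, the receptor of Cxcl1, Cxcl2 and Cxcl3, had 160, 221, 200 and 149 RPKM in PBS replicates 5 to 8 and 257, 207 and 242 RPKM in MC-21 replicates 2 to 4, with 1 PBS library above the lowest MC-21 library (log2 fold change 0.38, SE 0.17, limma's adjusted p = 0.343). Cxcr1 had 11.9, 23.5, 11.4 and 13.5 RPKM in PBS and 35.4, 19.6 and 37.7 RPKM in MC-21 neutrophils (log2 fold change 0.99, SE 0.30, limma's adjusted p = 0.188). Cxcr3, the receptor of Cxcl9 and Cxcl10 and a gene of T and NK cells, was low, between 0.933 and 4.69 RPKM, with a log2 fold change of 0.53 (limma's adjusted p = 0.468) that was 0.29 without MC-21 replicate 3 and 0.35 without PBS replicate 6. Cxcr6, the receptor of Cxcl16, was above 0 in 1 of 7 libraries, at 0.159 RPKM, and was not tested. Ackr1 and Ackr3 are decoy receptors that take up CXC ligands without signalling through G proteins. Ackr1 had 57.2, 64.3, 47.4 and 43.6 RPKM in PBS replicates 5 to 8 and 40.4, 22.8 and 16.8 RPKM in MC-21 replicates 2 to 4, without overlap (log2 fold change -1.04, limma's adjusted p = 0.145). Ackr3 had 1.55 to 4.52 RPKM in PBS and 0.465 to 1.81 RPKM in MC-21 neutrophils (log2 fold change -1.12, limma's adjusted p = 0.202). Ackr1 is best known from red cells and venular endothelium, and the part of these cells in its values was not tested.

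Upstream of the ligands, the list of NF-κB genes and inducing cytokines showed no common direction. Of 17 tested, limma gave 0 with an adjusted p under 0.05, 2 higher (Tnfaip3 and Nfkbia) and 2 lower (Nfkb2 and Relb) at an unadjusted p under 0.05, against 14.7% of all genes, and a median log2 fold change of -0.06. Nfkb2, a subunit of the non-canonical pathway, had 41.1, 41.5, 42.5 and 43.7 RPKM in PBS replicates 5 to 8 and 32.8, 32.3 and 30.3 RPKM in MC-21 replicates 2 to 4, without overlap (log2 fold change -0.40, SE 0.13, limma's adjusted p = 0.217). Its partner Relb overlapped between the groups (log2 fold change -0.48, SE 0.18, limma's adjusted p = 0.274). Tnfaip3 had 18.3, 32.2, 36.4 and 25.1 RPKM in PBS replicates 5 to 8 and 47.0, 57.6 and 45.4 RPKM in MC-21 replicates 2 to 4, without overlap (log2 fold change 0.85, SE 0.23, limma's adjusted p = 0.156). Il1a, an inducing cytokine, had 1.28 to 4.87 RPKM in PBS and 2.55 to 9.08 RPKM in MC-21 neutrophils (log2 fold change 0.60, limma's adjusted p = 0.570), and the difference was 0.11 without MC-21 replicate 2. Il1b had 5868 to 8005 RPKM in PBS and 6602 to 7988 RPKM in MC-21 neutrophils (log2 fold change 0.09, limma's adjusted p = 0.799). Tnf had 101 to 145 RPKM in PBS and 74.4 to 117 RPKM in MC-21 neutrophils (log2 fold change -0.43, limma's adjusted p = 0.364). Both overlapped between the groups. Of 6 tested regulators of chemokine mRNA decay, 1 was higher at an unadjusted p under 0.05 (14.7% of all genes in either direction) and limma gave 0 with an adjusted p under 0.05 (median -0.06). That gene was Zc3h12a, the endoribonuclease Regnase-1, with 28.4, 48.7, 33.8 and 39.7 RPKM in PBS and 67.2, 58.2 and 78.2 RPKM in MC-21 neutrophils, without overlap (log2 fold change 0.85, SE 0.20, limma's adjusted p = 0.109). Zfp36l2, which binds AU-rich elements, had a log2 fold change of -0.52 with overlap (limma's adjusted p = 0.466), which was -0.79 without PBS replicate 5 and -0.33 without PBS replicate 6.

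Of 22 tested genes of the interferon pathway, limma gave 0 with an adjusted p under 0.05, 4 higher at an unadjusted p under 0.05 (Irf7, Ifngr1, Jak2 and Socs1), against 14.7% of all genes in either direction, and a median log2 fold change of -0.16. The lowest adjusted p, 0.0697 by limma, was that of Irf7, a master factor of type I interferon responses, with 67.7, 142, 94.0 and 92.7 RPKM in PBS replicates 5 to 8 and 348, 236 and 184 RPKM in MC-21 replicates 2 to 4 (log2 fold change 1.36, SE 0.27). The groups did not overlap. Socs1, a feedback inhibitor of cytokine signalling, had 8.91, 29.8, 8.99 and 10.2 RPKM in PBS and 46.8, 35.7 and 27.7 RPKM in MC-21 neutrophils (log2 fold change 1.44, SE 0.39, limma's adjusted p = 0.155). Without PBS replicate 6 its adjusted p was 0.0128 and that of Irf7 0.0320, both by limma, and after median centring that of Irf7 was 0.0323. The ligand Ifng itself was not tested, being under 0.5 RPKM in every library. Of 7 tested sheddases and proteases that act on CXC ligands, 0 had an unadjusted or adjusted p under 0.05 by limma (median -0.08). Mmp8, neutrophil collagenase, had 5.15 to 40.2 RPKM in PBS and 8.45 to 49.8 RPKM in MC-21 neutrophils (log2 fold change 0.79, SE 0.71), and the difference was 0.21 without MC-21 replicate 2 and 1.42 without MC-21 replicate 3. Leaving out PBS replicate 5, 7 or 8 gave 0.48, 1.34 or 0.42 for Mmp8. The values of Adam10, the sheddase of Cxcl16, were 1.02 to 3.13 RPKM in PBS and 2.03 to 3.16 RPKM in MC-21 neutrophils (log2 fold change 0.49, SE 0.29).

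**Figure D5:**
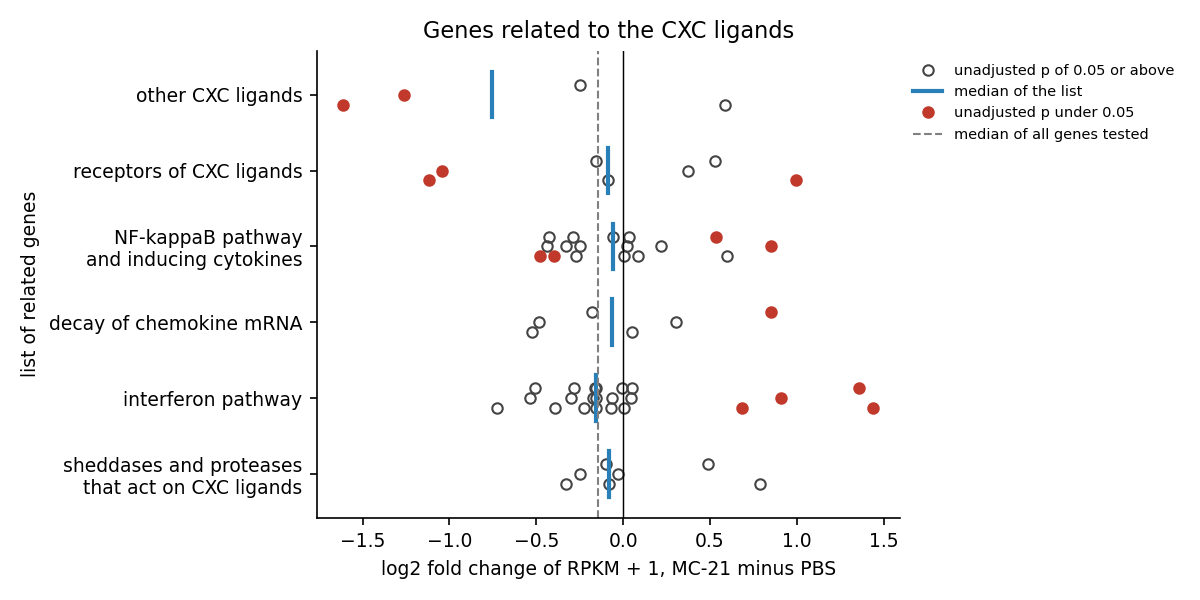
Log2 fold changes, MC-21 minus PBS, of the tested genes in 6 lists related to the CXC ligands. Filled points have an unadjusted p under 0.05 (8 higher and 6 lower of the 63 genes shown, against 14.7% of all genes in either direction), blue bars are the medians of the lists, and the dashed line is the median of all genes tested.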

How the data were processed

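Neutrophil RNA of 7 samples was sequenced by the authors as 3′ libraries and mapped to mm9 with HISAT 0.1.5. The deposited values are RPKM per gene from Partek 6.6, with the versions per the submitters' processing notes. The annotation, the use of strand and the handling of multiple matches and molecular barcodes are not given in the sources used here. Differences were computed on log2(RPKM + 1) for genes averaging 1 RPKM or more, with limma 3.58.1 (trended eBayes, R 4.3.3) and Benjamini-Hochberg adjustment over 9594 genes, in place of the study's unpaired test. Intervals are limma's, at 95%. Reads per library were estimated from genes under 1 RPKM with 1 annotated transcript, of which 73.5% to 76.8% then lay within 0.1 of a whole read, and transcript lengths are those of GENCODE M1. Members, lists, motifs and tests were chosen with earlier results of these data known. Named are all members, their receptors, the 2 genes of each list with the largest absolute fold change and the 3 nearest profiles per member. Outside this rule and after their values were seen, Ccr2, Art3, Ifng, Jak2, Ifngr1, Nfkbia, Nfkb2, Relb, Il1b, Tnf, Ccr7, Cd79b, Itga2b, Gp9 and Ppbp are named. Tested on simulated data of 9594 genes, the fit recovered 175 of 200 genes changed by 2 on the log2 scale, with 9 false calls. That change is larger than the change of any ligand, and smaller changes were not simulated. The residues before the CXC cysteines were not searched. From the lists and motifs, 1 gene and 1 motif are not reported here whatever their values, counts over the lists leave this gene out, and the fits and adjustments keep it.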

Additional observations from a re-analysis of the deposited data

Results flagged for a closer look

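In the PBS group, 1 library stood apart from the other 3 on the log2(RPKM + 1) scale for 3 of the genes named. Cxcl9 was highest in PBS replicate 8 (6.52 RPKM, the other libraries between 4.86 and 5.06), with a gap that made up 0.859 of the range of the group. Adam10 was highest in PBS replicate 6 (3.13 RPKM), with a gap of 0.877 of the range. Socs1 was highest in PBS replicate 6 too (29.8 RPKM, the next library 10.2), with a gap of 0.894. Each gap is above the 95% critical value of Dixon's ratio for 4 libraries, and chance alone marks about 1 in 20 groups. Some genes of the lists that are not named here were above that value as well. The MC-21 group has 3 libraries and was not examined in this way.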

How the results depend on the processing

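No paired analysis was possible because the groups share no replicate number. Over 13 other fits, the number of CXC ligands with an adjusted p under 0.05 was 0 throughout, and 77 of 78 fold changes kept their direction, the exception being Cxcl2 at 0 under quantile normalization, where rank 2 in every library fixes the value. The fits with another filter or without the trend leave the fold change of a gene as it was, so their direction was fixed in advance. The number past the study's cutoffs was 2 with a pseudocount of 0.1 (Cxcl3 and Cxcl16) and 0 to 2 with 1 library left out, being 0 without PBS replicate 5 or MC-21 replicate 4, and 2 without PBS replicate 6, PBS replicate 7 or MC-21 replicate 3. The number without overlap was 3 on the deposited values, 2 with quantile normalization and 3 to 5 with 1 library left out. It was 5 without MC-21 replicate 3, where Cxcl10 and Cxcl16 were added. Groups of fewer libraries are more often without overlap by chance, and the share over all genes is not given for these settings. In the lists, 2 genes had an adjusted p under 0.05 with median centring (Irf7 and Jak2) and 0 to 3 with 1 library left out, 3 being without PBS replicate 6 (Irf7, Jak2 and Socs1). By RPKM times length, 4 of 6 ligands kept their place in the PBS order, as Cxcl16 and Cxcl10 changed places, and 3 of 6 in MC-21, where Cxcl16 passed Cxcl10 and Cxcl1. The number of all genes with an adjusted p under 0.05 was 60, but 4 without a filter, and 9 to 102 with 1 library left out. All 190 fold changes of the 15 genes in the lists that were named by the rule above kept their direction. This number includes the fits with another filter or without the trend, where the direction could not change. The depth limits Cxcl9 most, at 34 to 76 estimated reads.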
